A study of Mus musculus with 6 samples.

Results

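The members described here are 10 genes that cells are known to switch on in low oxygen and that lie outside the glycolytic pathway: Adm, Ndrg1, Ankrd37, Mxi1, Ak4, Ero1l, Cited2, Bhlhe40, Car9 and Car12. They were taken by gene symbol from the 26778 genes of the authors' deposited table, and all 10 were found there. The table compares bone marrow-derived macrophages, which are phagocytes grown from mouse marrow, of 2 genotypes on a C57BL/6 background. Cells heterozygous for Flt1 (Flt1+/-, also labelled VR1+/-, 3 libraries) are set against wild-type cells (Flt1+/+, VR1+/+, 3 libraries). Flt1 encodes VEGF receptor 1. The protocol describes starvation medium with 2% oxygen for 6 h from day 7 of culture, or regular growth conditions, and both groups carry the mark HSS. HSS is read here as the starvation and low-oxygen arm, which the labels do not spell out, and no library from regular growth conditions was analysed here. Before that, cultures grew in medium with FCS and L292-conditioned medium. The labels do not give the animals' age or sex or how the Flt1 allele was made, and they do not say whether the libraries of a genotype came from separate mice, so each p-value speaks for the spread of these 6 libraries only, and that spread may be technical.

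Hypoxia-inducible factors (HIF) are pairs of an oxygen-regulated alpha subunit and a constant beta subunit. In normal oxygen prolyl hydroxylases mark the alpha subunit for destruction, and in low oxygen it escapes, enters the nucleus and binds short DNA elements with the core ACGTG or GCGTG. Besides glycolytic enzymes, the induced genes serve secretion, protein folding, control of pH and feedback on transcription, and macrophages, which work in poorly perfused tissue, use this response.

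Promoter sequence is shown for 4 members, of which Ankrd37, Ero1l and Adm were lower in Flt1+/- libraries and Car9 was not called, so that the core element can be seen in members that did and did not pass the test. The sequences are from RefSeq on build GRCm38.p6, the reference that mm10 also denotes, and each runs 5′ to 3′ on the gene's strand over the 250 bases before an annotated start. Capitals mark ACGTG or GCGTG on either strand, so that a copy on the opposite strand reads CACGT or CACGC.
Ankrd37, chr8:45999851-46000100, minus strand: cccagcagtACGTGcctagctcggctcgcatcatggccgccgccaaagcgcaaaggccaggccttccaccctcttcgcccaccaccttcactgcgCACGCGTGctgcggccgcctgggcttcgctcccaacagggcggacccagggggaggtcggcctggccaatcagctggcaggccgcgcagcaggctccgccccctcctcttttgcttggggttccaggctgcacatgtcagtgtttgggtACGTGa
Ero1l (Ero1a in RefSeq), chr14:45318573-45318822, minus strand: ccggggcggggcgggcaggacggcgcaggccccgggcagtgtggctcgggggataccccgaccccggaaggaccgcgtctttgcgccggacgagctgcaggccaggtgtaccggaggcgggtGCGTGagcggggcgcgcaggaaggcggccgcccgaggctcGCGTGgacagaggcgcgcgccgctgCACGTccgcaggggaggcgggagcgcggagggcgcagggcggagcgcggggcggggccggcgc
Adm, chr7:110627407-110627656, plus strand: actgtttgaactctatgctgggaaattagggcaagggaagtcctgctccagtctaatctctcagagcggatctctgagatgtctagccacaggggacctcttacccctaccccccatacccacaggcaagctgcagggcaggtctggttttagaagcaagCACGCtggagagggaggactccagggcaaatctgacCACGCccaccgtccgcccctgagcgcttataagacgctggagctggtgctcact
Car9, chr4:43506776-43507025, plus strand: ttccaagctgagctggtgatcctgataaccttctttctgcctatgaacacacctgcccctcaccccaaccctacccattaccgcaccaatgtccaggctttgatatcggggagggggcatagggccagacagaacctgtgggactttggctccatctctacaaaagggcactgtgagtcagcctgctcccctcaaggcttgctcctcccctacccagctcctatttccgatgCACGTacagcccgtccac

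The Ankrd37 stretch held 4 cores, an ACGTG that begins 6 bases before the start, another 241 bases before it, and a pair of GCGTG cores on opposite strands that overlap. The start used for Ankrd37 lies inside the annotated span of its gene, which on the minus strand opens at 46005707. In Ero1l the cores began 128, 88 and 63 bases before the start, and in Adm 90 and 54 bases before it. Car9 had 1 core, on the opposite strand, 18 bases before the start. Promoter windows reaching from 250 bases before to 50 bases after a start were found for 8 members, and Ndrg1 and Bhlhe40 had none in the table used. At least 1 window of 7 of these 8 members held ACGTG or GCGTG, and the exception was Car12. That count is by gene and has no share of all genes beside it, and a gene with several windows has more room for a match. Of the 13 windows of members 11 held ACGTG or GCGTG, against 43.8% of all 32851 windows. ACGTG was found in 7 of the 13 windows and in 19.6% of all windows, and GCGTG in 7 of the 13 and in 32.4%. The palindrome CACGTG, an E-box that contains ACGTG and that the MAX and BHLHE families bind, occurred in 2 member windows, 1 of Cited2 and 1 of Ak4, and in 7.15% of all windows. Several windows of Ak4 overlap one another, so windows are not independent, and a match describes letters, not binding.

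For 26348 genes, 98.4% of the table, the group means could be solved for the whole reads of each library, and 9 of the 10 members are among them. The recovered reads in these genes came to between 14622113 and 23862077 per library. The libraries so recovered are lettered A, B and C within their genotype, and no letter can be matched to a replicate number. Flt1 itself stood at 17.1, 12.9 and 8.19 normalized counts in Flt1+/- libraries A, B and C, against 3.70, 10.3 and 6.04 in Flt1+/+ libraries A, B and C, with adjusted p = 0.641 in the authors' deposited table. Flt1 thus did not fall in the libraries labelled Flt1+/- and does not check the genotype labels, so each direction given here is that of the libraries labelled Flt1+/-. Libraries also differed across genotype: the mitochondrial gene mt-Co2 had reads in Flt1+/- library A and Flt1+/+ libraries A and B and was listed at 0 in Flt1+/- libraries B and C and Flt1+/+ library C. The marrow cultures differed in markers of other cells too. Of 10 neutrophil markers 8 were tested and all 8 were higher in Flt1+/- libraries. The summed level of all 10 ran from 3050 to 4034 normalized counts in Flt1+/- libraries and from 161 to 199 in Flt1+/+ libraries. Of the untested ones, Elane was listed at 0 in all but 1 library and Mpo at 0 in 2. Of 4 B and plasma cell markers both tested ones were lower. The summed level of all 4 was 21.9 to 45.0 in Flt1+/- libraries against 290 to 486 in Flt1+/+ libraries. Of 5 fibroblast markers Acta2 was higher and 0 were lower. Among 3 endothelial markers Vwf was higher by the deposited test (adjusted p = 0.0482) but not by limma (adjusted p = 0.194). Pecam1 and Cdh5 were not called. Cd4, the 1 tested T and NK cell marker, was lower by the deposited test but not by limma (adjusted p = 0.122). Cd3e was listed at 0 in all libraries but Flt1+/+ library C, at 2.01, and Nkg7 was not listed. Cd4 is therefore not read here as a sign of T cells. Among macrophage markers Cd68 and Csf1r were lower and Adgre1, Lyz2, Mertk, Fcgr1 and Itgam were not called. Their part in the results below was not tested, and in such bulk RNA fewer cells of a type and less RNA per cell cannot be told apart.

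Of the 10 members 5 fell in Flt1+/- macrophages and 0 rose. The deposited test called 5 of 10 members at an adjusted p of 0.05, Ankrd37, Mxi1, Ero1l, Bhlhe40 and Adm, all of them lower, against 3.52% of the 15789 genes tested that were called lower, 2.51% called higher and 6.04% called in either direction. At an adjusted p of 0.01 these were again 5 members against 2.24% of genes called lower, and at 0.1 again 5 against 4.45%. At an unadjusted p of 0.05 the deposited test had 5 members lower and 0 higher, and the share of all genes at that looser threshold is not given here. Mean levels of these 5 in Flt1+/- libraries were between 29.2% and 57.8% of those in Flt1+/+ libraries. Over all 10 members the median log2 ratio of the group means, with 1 added to each mean, was -0.90, against -0.01 over all genes tested. All 10 ratios were below 0, from -1.77 for Ankrd37 to -0.12 for Ndrg1, as were 8066 of the 15789 genes tested. The members were chosen with earlier results of these data known, so these counts describe the set and give no independent support.

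**Figure D1:**
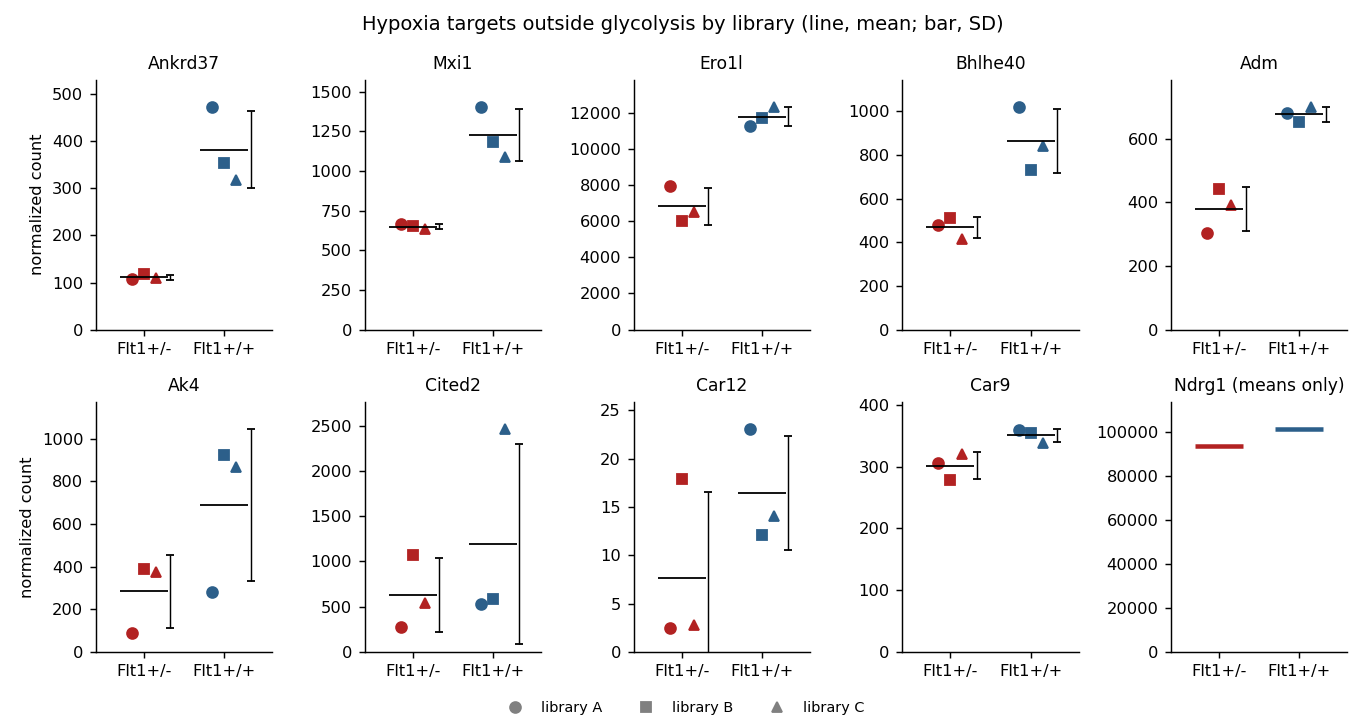
Normalized counts of each member by library, with the Flt1+/- libraries on the left and the Flt1+/+ libraries on the right of each panel and each vertical axis starting at 0 (horizontal line, mean; bar, SD, cut off at 0 for Car12; Ndrg1, group means only). Ankrd37, Mxi1, Ero1l, Bhlhe40, Adm and Car9 show no overlap between genotypes, while Ak4, Cited2 and Car12 spread widely within each genotype.

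Ankrd37 (ENSMUSG00000050914, chromosome 8, 45996902 to 46005707, build mm10) encodes a small protein with ankyrin repeats and is a direct HIF target. It had 107, 117 and 111 normalized counts in Flt1+/- libraries A, B and C, against 473, 353 and 318 in Flt1+/+ libraries A, B and C. All 3 Flt1+/- libraries lay within a narrow band far below the lowest Flt1+/+ library. Its means were 112 ± 5.31 in Flt1+/- and 382 ± 81.5 in Flt1+/+ libraries (SD, n = 3 each), and its log2 fold change was -1.50 ± 0.19 (SE; adjusted p = 5.33e-13) in the authors' deposited table. It was the member with the lowest ratio. The gene overlaps Lrp2bp and Ufsp2 on the opposite strand, and how the authors' counting used strand is not given. In the authors' deposited table Lrp2bp stood at 7.55 normalized counts in Flt1+/- and 27.7 in Flt1+/+ libraries (adjusted p = 0.0607), and Ufsp2 at 2850 in Flt1+/- and 2945 in Flt1+/+ libraries (adjusted p = 0.941).

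Of 3 members that regulate transcription, Mxi1 and Bhlhe40 fell and Cited2 was not called. Mxi1 (ENSMUSG00000025025, chromosome 19, 53310506 to 53375810) encodes a partner of MAX that opposes MYC. It stood at 663, 651 and 633 normalized counts in Flt1+/- libraries A, B and C, against 1405.5, 1183 and 1088 in Flt1+/+ libraries A, B and C. The Flt1+/- libraries were almost level with each other, and all of them were well below the Flt1+/+ libraries. Mxi1 means were 649 ± 14.8 in Flt1+/- and 1226 ± 163 in Flt1+/+ libraries (SD, n = 3 each), and its log2 fold change in the authors' deposited table was -0.85 ± 0.14 (SE; adjusted p = 6.80e-08). Mxi1 has several annotated starts, and the table gives 1 value for the gene.

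Bhlhe40 (ENSMUSG00000030103, chromosome 6, 108660629 to 108666925) encodes a basic helix-loop-helix repressor that also acts on the circadian clock. Its levels were 480, 510 and 415 normalized counts in Flt1+/- libraries A, B and C and 1022, 731 and 840 in Flt1+/+ libraries A, B and C. The genotypes did not overlap, with more spread among the Flt1+/+ libraries, and the means were 468 ± 48.6 in Flt1+/- and 864 ± 147 in Flt1+/+ libraries (SD, n = 3 each). In the authors' deposited table its log2 fold change was -0.79 ± 0.16 (SE; adjusted p = 6.45e-05).

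Cited2 (ENSMUSG00000039910, chromosome 10, 17723218 to 17725674) encodes a feedback inhibitor that competes with HIF alpha subunits for their coactivators. It was not called. Its levels were 276, 1069 and 541 normalized counts in Flt1+/- libraries A, B and C, against 525, 586 and 2469 in Flt1+/+ libraries A, B and C. The highest library of each genotype stood apart from the other two, and Flt1+/- library B was above Flt1+/+ libraries A and B. The means, 629 ± 404 in Flt1+/- and 1193 ± 1105 in Flt1+/+ libraries (SD, n = 3 each), differed by less than the Flt1+/+ SD, with adjusted p = 0.725 in the authors' deposited table.

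Ero1l (ENSMUSG00000021831, chromosome 14, 45283092 to 45318572) encodes the oxidase that recharges protein disulfide isomerase in the endoplasmic reticulum. It had 7937, 6000 and 6497 normalized counts in Flt1+/- libraries A, B and C and 11287, 11707 and 12342 in Flt1+/+ libraries A, B and C. Every Flt1+/- library was below every Flt1+/+ library. Ero1l averaged 6812 ± 1006 in Flt1+/- and 11779 ± 531 in Flt1+/+ libraries (SD, n = 3 each), a log2 fold change of -0.73 ± 0.13 (SE; adjusted p = 2.32e-06) in the authors' deposited table.

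Adm (ENSMUSG00000030790, chromosome 7, 110627661 to 110629820) encodes adrenomedullin, a secreted peptide that widens blood vessels. It stood at 305, 442 and 392 normalized counts in Flt1+/- libraries A, B and C, against 681, 651 and 698 in Flt1+/+ libraries A, B and C. The Flt1+/+ libraries were close together and the Flt1+/- libraries lay lower and further apart, at 380 ± 69.5 in Flt1+/- and 677 ± 23.9 in Flt1+/+ libraries (SD, n = 3 each). For Adm the log2 fold change was -0.75 ± 0.16 (SE; adjusted p = 1.69e-04) in the authors' deposited table.

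Enzymes of energy and pH balance were not called. Ak4 (ENSMUSG00000028527, chromosome 4, 101419277 to 101466995) encodes a mitochondrial adenylate kinase. It had 86.4, 390 and 374 normalized counts in Flt1+/- libraries A, B and C, against 280, 925 and 866 in Flt1+/+ libraries A, B and C. In each genotype library A was far below the other two, and Flt1+/+ library A lay below Flt1+/- libraries B and C. The ratio of the group means was -1.28 on the log2 scale, a larger difference than for 4 of the 5 called members, but adjusted p = 0.473 in the authors' deposited table.

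Car9 and Car12 encode carbonic anhydrases whose catalytic domains face the outside of the cell, where they take part in acid export. Car9 (ENSMUSG00000028463, chromosome 4, 43506966 to 43513729) stood at 305, 278 and 321 normalized counts in Flt1+/- libraries A, B and C and at 359, 354 and 338 in Flt1+/+ libraries A, B and C. The genotypes did not overlap but differed by little, at 301 ± 21.5 in Flt1+/- and 350 ± 10.9 in Flt1+/+ libraries (SD, n = 3 each), with adjusted p = 0.555 in the authors' deposited table. The antisense gene Gm12454 overlaps it at 39.6 normalized counts in Flt1+/- and 34.3 in Flt1+/+ libraries. Car12 (ENSMUSG00000032373, chromosome 9, 66713686 to 66766845) was barely detected, with 3, 18 and 2 reads in Flt1+/- libraries A, B and C and 25, 13 and 14 reads in Flt1+/+ libraries A, B and C. Flt1+/- library B lay among the Flt1+/+ libraries, and Car12 was not called (adjusted p = 0.659 in the authors' deposited table). Without Flt1+/- library B, its highest Flt1+/- library, the limma log2 difference was -2.23 with adjusted p = 0.0754, against 0.376 with all libraries. Leaving out that library was bound to widen the difference, and each other omission gave a limma adjusted p between 0.540 and 0.613.

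Ndrg1 (ENSMUSG00000005125, chromosome 15, 66929321 to 66969640) encodes a stress-responsive cytoplasmic protein of the alpha/beta hydrolase fold. It was by far the most abundant member, at a mean of 93636 normalized counts in Flt1+/- and 101522 in Flt1+/+ libraries, as the authors' means. By mean over both genotypes it ranked 23 among all genes of the table. Its log2 fold change was -0.11 ± 0.09 (SE; adjusted p = 0.645) in the authors' deposited table. At this level its library counts could not be resolved, since 14 sets of counts matched the Flt1+/- mean and 204 matched the Flt1+/+ mean, so its spread between libraries is not shown.

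Levels between genes are compared per length, as mean normalized counts over both genotypes per kilobase of annotated exon. On this scale Ndrg1 had 14794, Ero1l 1759, Cited2 371, Adm 326 and Ankrd37 160. Bhlhe40 with 142, Car9 with 141 and Mxi1 with 137 lay next to each other, followed by Ak4 with 105, and Car12 with 1.59 was last. Car9 was thus about as abundant per length as the called members Bhlhe40 and Mxi1, and both the highest and the lowest member by level were among the 5 that were not called. Whether level had a part in the calls was not tested.

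**Figure D2:**
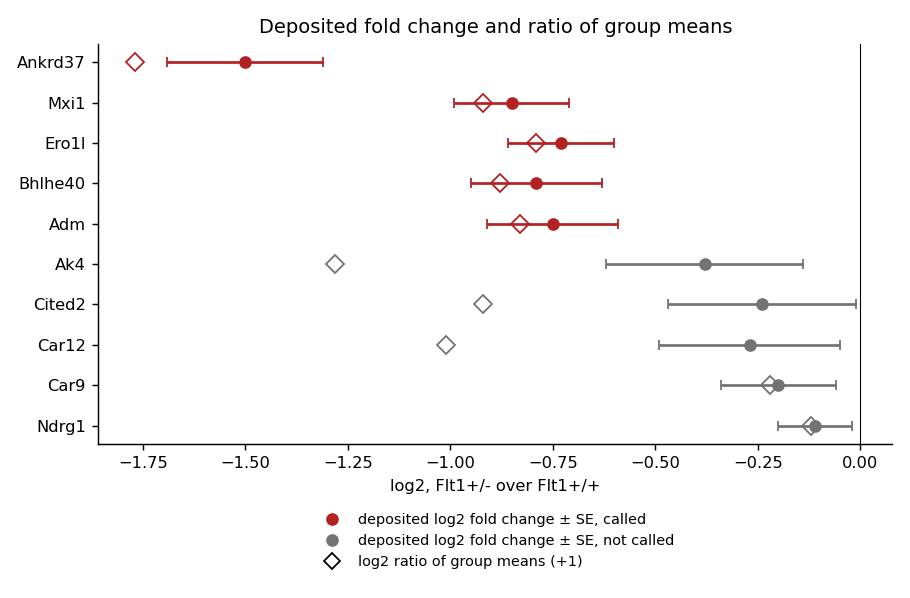
Deposited log2 fold change with its standard error (circles) and log2 ratio of the group means (diamonds) for each member, Flt1+/- over Flt1+/+, with the 5 called members in red. For Ak4, Cited2 and Car12 the deposited value lies far nearer to 0 than the ratio of the means.

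The deposited fold changes are drawn towards 0, and by different amounts. For the 5 called members and for Car9 and Ndrg1 the deposited log2 fold change in the authors' deposited table was between 0.847 and 0.968 of the log2 ratio of the group means. For Ak4 it was 0.298 of that ratio, for Car12 0.268 and for Cited2 0.255. These last members are also the ones with the widest spread: the highest library was 4.51 times the lowest among Flt1+/- and 3.30 times among Flt1+/+ libraries for Ak4, 3.88 and 4.70 times for Cited2, and 7.31 and 1.91 times for Car12. For the called members this factor was at most 1.45 in Flt1+/- and 1.49 in Flt1+/+ libraries.

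**Figure D3:**
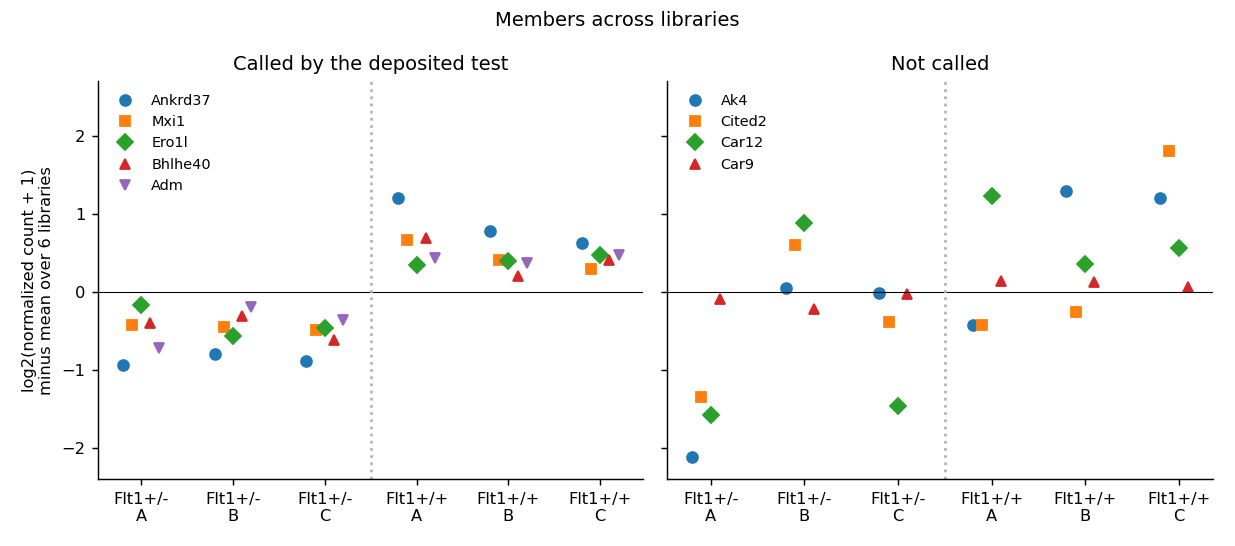
Log2(normalized count + 1) of each resolved member minus its mean over the 6 libraries, with Flt1+/- libraries to the left of the dotted line and Flt1+/+ libraries to the right; called members are in the left panel and members not called in the right panel. Called members keep the genotypes apart in every library, at medians of -0.49 to -0.42 in Flt1+/- and 0.39 to 0.66 in Flt1+/+ libraries.

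The recovered libraries allowed a second test, limma on log2(normalized count + 1), which called the same 5 members lower of 9 in the fit, against 1.41% of 15138 genes called lower, 0.826% called higher and 2.24% called in either direction. Its adjusted p was 0.00946 for Ankrd37, 0.0182 for Mxi1, 0.0242 for Ero1l, 0.0385 for Bhlhe40 and 0.0421 for Adm, and between 0.369 and 0.637 for Ak4, Cited2, Car9 and Car12. Groups did not overlap, with every Flt1+/- library below every Flt1+/+ library, for 6 of the 9 resolved members, which are the called ones and Car9, against 12.3% of the same genes. With 1 library left out limma called 3 members without Flt1+/- library A (0.621% of genes lower), 4 without Flt1+/- library B (1.49%) and 1, Ankrd37, without Flt1+/- library C (0.284%). It called Ankrd37 alone without Flt1+/+ library A (0.423%) or C (0.192%), and 0 members without Flt1+/+ library B (0.145%). In the last case 22 of all 15138 genes were still called lower at an adjusted p of 0.05. At the looser unadjusted p of 0.05, 5 of 9 members were lower. The share of all genes at that threshold is not given here, so the 2 counts cannot be compared. The log2 difference of the called members stayed between -1.87 and -0.70 over these omissions.

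The called members had no overlap between genotypes, so they were bound to be lower within each of the library sets that mt-Co2 marks. Among libraries with mt-Co2 reads, Flt1+/- library A against Flt1+/+ libraries A and B, their log2 ratios were between -1.94 and -0.53. Among those without, Flt1+/- libraries B and C against Flt1+/+ library C, they were between -1.47 and -0.74. The 4 resolved members not called were also below 0, at -2.79 to -0.23 with mt-Co2 reads and -1.62 to -0.17 without. Each set holds 3 libraries, so these values carry no test. When the library set was added to the limma model 4 members were called, against 2.15% of genes called lower, and Bhlhe40 was lost at an adjusted p of 0.0531.

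**Figure D4:**
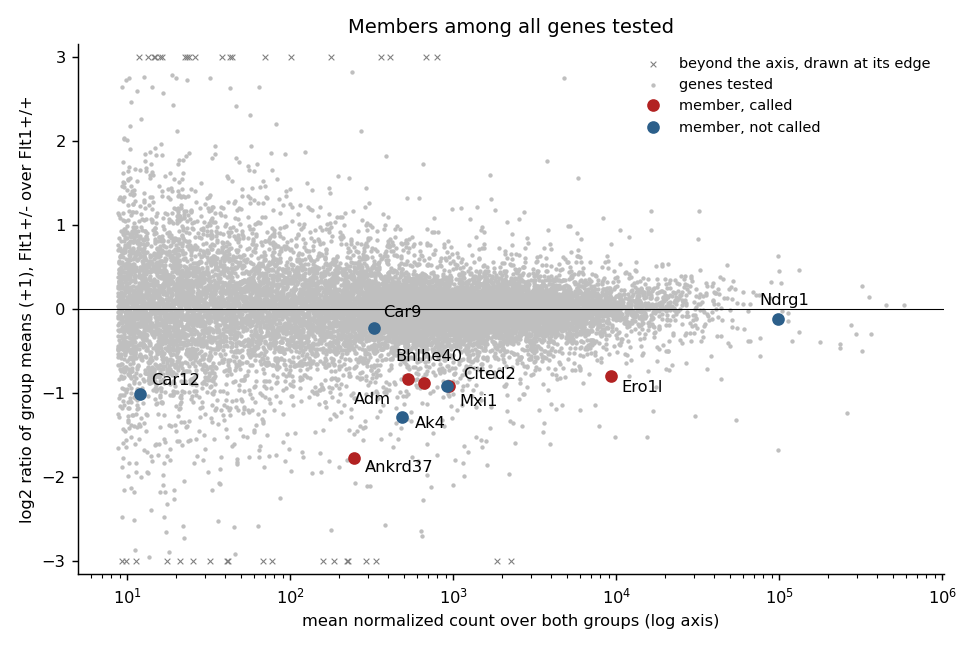
Log2 ratio of the group means, Flt1+/- over Flt1+/+, against the mean normalized count over both genotypes (log axis) for all genes tested (grey) and the 10 members (red, called; blue, not called). All 10 members lie below 0, and Ndrg1 lies at the far right, close to 0.

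Other known HIF targets were described from a list of 42 genes that leaves the members out. All 42 were tested, 28 were lower and 0 higher at an adjusted p of 0.05 by the deposited test, against 3.52% of all genes called lower, and the median log2 ratio was -0.60. Of 15 genes of glycolysis and of glucose or lactate transport 11 were lower, with a median of -0.74, and of the remaining 27 genes 17 were lower, with a median of -0.59. At an unadjusted p of 0.05 the deposited test had 1 higher. limma called 14 of 34 lower, against 1.41% of all genes, and 0 higher, with 1 higher at an unadjusted p of 0.05. Left-out libraries moved this limma count to 10 without Flt1+/- library A, 14 without Flt1+/- library B, 2 without Flt1+/- library C, 3 without Flt1+/+ library A, 4 without Flt1+/+ library B and 3 without Flt1+/+ library C. The share of all genes that limma called lower also moved, between 0.145% and 1.49% over these omissions. Hilpda, a regulator of lipid droplets, had the lowest ratio among genes with a mean of at least 50, at 231, 294 and 296 normalized counts in Flt1+/- libraries A, B and C, against 773, 1165 and 1637 in Flt1+/+ libraries A, B and C. P4ha2, a collagen prolyl hydroxylase subunit, and Egln3, one of the prolyl hydroxylases that mark HIF, followed with log2 ratios of -2.07 and -1.76. At the other end, again with a mean of at least 50, Pfkfb4, Plod1 and Kdm4c had log2 ratios of 0.10, 0.04 and 0.02 and the smallest adjusted p among them was 0.824 in the authors' deposited table.

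**Figure D5:**
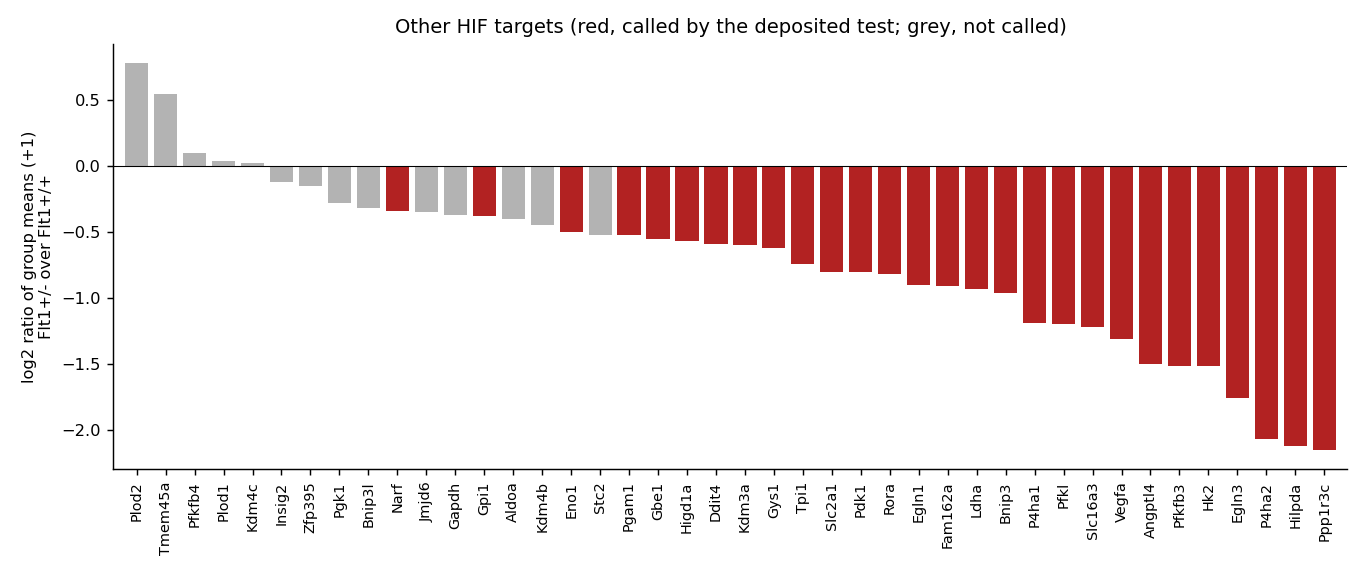
Log2 ratio of the group means, Flt1+/- over Flt1+/+, for the 42 other HIF targets, ordered by ratio (red, called by the deposited test; grey, not called). The 28 called genes all lie below 0.

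Relatives and partners of the members were described in the same way. In 8 families with 69 genes listed, 54 were tested, 5 were lower and 1 was higher, and their median log2 ratio was -0.08. These 6 calls are 11.1% of the tested genes, against 6.04% of all genes called in either direction. limma called 2 of 52, Pdia6 and Per1, both lower, or 3.85% against 2.24% of all genes in either direction. Whether either share differs from the background was not tested, and the genes named next are single calls and not results about their families. With 1 library left out limma called Slc16a1 alone without Flt1+/- library A and 0 without any of the others. In those other omissions 7 to 14 of 52 were lower and 1 to 8 were higher at an unadjusted p of 0.05. The share of all genes at that threshold is not given here, so these counts cannot be compared with a background. Among genes of oxidative folding, the partners of Ero1l, Pdia6 was lower at 8574, 8395 and 7929 normalized counts in Flt1+/- libraries A, B and C, against 12919.5, 11794 and 10886 in Flt1+/+ libraries A, B and C. Pdia4 was also lower (adjusted p = 0.0141 in the authors' deposited table), and the paralogue Ero1lb was not called (adjusted p = 0.306). P4hb, protein disulfide isomerase itself, had means of 15785 in Flt1+/- and 26152 in Flt1+/+ libraries but adjusted p = 0.0817 in the authors' deposited table.

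Of 10 clock and BHLHE genes Per1 was the 1 called, a period gene that is also rapidly induced by stress, at 639 ± 129 normalized counts in Flt1+/- and 1468 ± 357 in Flt1+/+ libraries (SD, n = 3 each). Bhlhe41, the paralogue of Bhlhe40, had 1124 in Flt1+/- and 1435 in Flt1+/+ libraries and was not called (adjusted p = 0.327 in the authors' deposited table). In the MAX network Mycl was higher, at 81.5 ± 17.6 in Flt1+/- and 39.9 ± 4.78 in Flt1+/+ libraries (SD, n = 3 each), while Max, Myc and Mxd1 were not called. Ndrg4 was lower in the NDRG family, with adjusted p = 0.0375 in the authors' deposited table, and Slc16a1, a lactate and proton transporter, was lower among genes of bicarbonate and acid transport, with adjusted p = 0.0103 there. Of 5 tested adenylate kinases 0 were called by the deposited test and 0 by limma, with 0 at an unadjusted p of 0.05 in the deposited test. Adrenomedullin's receptor gene Calcrl stood at 1205 in Flt1+/- and 1121 in Flt1+/+ libraries and was not called. Of 8 genes of the CITED family, HIF subunits and coactivators 0 were called by the deposited test, with 0 at an unadjusted p of 0.05, and 0 of 8 by limma. Hif1a, the main alpha subunit, had 6094, 4709 and 5405 normalized counts in Flt1+/- libraries A, B and C and 4928, 4919 and 4736 in Flt1+/+ libraries A, B and C, with adjusted p = 0.679 in the authors' deposited table.

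Over the 6 libraries, genes with a mean of at least 100 were ranked by Pearson's r on log2(normalized count + 1) with the 3 members of smallest adjusted p. Among 10802 genes Ankrd37 was most like Itpr1 (r = 0.998) and Mxi1 (r = 0.997). Mxi1 was most like Fam162a (r = 0.997), another gene of the list of other HIF targets, and Ankrd37. Ero1l was most like Pde4b (r = 0.999) and Fbxo34 (r = 0.995). These values rest on 6 libraries that share the genotype difference and were picked as the highest of all genes, so they are a description and carry no test.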

How the data were processed

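Per the labels' protocols, total RNA was depleted of rRNA and made into stranded libraries. Build mm10, Cufflinks, TopHat 1.0.0 and FastQC are named per the submitters' processing notes; what each did is not stated, and the read counter, or whether it used strand, is not given in the sources used here. Per the file headers, the deposited table has the columns of a DESeq2 results table. The signal the authors deposited for each genotype is a mean of size-factor-normalized reads. The log2 fold changes the authors deposited run Flt1+/- over Flt1+/+ and are drawn towards 0. Their deposited score is the test statistic. The deposited p-values came adjusted for all but 10989 genes, which stayed without.

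Calls by the deposited test required an adjusted p of 0.05 and a mean of at least 1. For log2 ratios 1 was added to each group mean, so changes of low genes are understated. Members, gene lists and tests were chosen with earlier results of these data known. The naming rule took all members, Flt1, mt-Co2, the 3 lowest and 3 highest other HIF targets with a mean of at least 50, called family genes, and the 2 genes most like each of the 3 members of smallest adjusted p; uncalled family genes, overlapping genes and cell markers were named after their values were seen.

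Each group mean is a sum of 3 whole counts times fixed steps; these were solved from values of 15 significant digits, a unique solution being required in both groups. Size factors recomputed as median ratios differed by at most 0.174%. On simulated means of 26778 genes no count was recovered wrong, with 26371 right for Flt1+/- and 26540 for Flt1+/+. limma 3.58.1 in R 4.3.3 (trend, mean of at least 10, 15138 genes) was tested on simulated counts with 1 dispersion of 0.0101 for these genes, where it called 99% of genes changed 2-fold and 100% of those changed 4-fold, and 6 unchanged genes; genes with a wider spread are called less readily. Exact permutation of 3 against 3 libraries, whose smallest p is 0.1, was left out. Alternatives tried were other thresholds, pseudocounts, a minimum mean, rescaling, limma, omission of each library and a library-set term. Python 3.11.15, numpy and pandas did the rest.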

Additional observations from a re-analysis of the deposited data

How the results depend on the processing

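The 5 member calls of the deposited test were unchanged in number at an adjusted p of 0.01 or 0.1, with a minimum mean of 50 and with limma, and were 4 with the library-set term and 1 (Ankrd37) when a log2 ratio of at least 1 in size was also asked. With 1 library left out limma called 0 to 4 of 9 members, 2 to 14 of 34 other HIF targets and 0 to 1 of 52 family and partner genes, against 5, 14 and 2 by limma with all libraries. Against 28 other HIF targets by the deposited test, limma called 14 of 34 and 16 with the library-set term. For family and partner genes the deposited test called 6, limma 2 and limma with the set term 3. The members' median log2 ratio was -0.90, -0.90 with a pseudocount of 0.1 or no minimum mean, -0.84 with a pseudocount of 10 and -0.89 after rescaling all genes to a median of 0. No member's ratio changed sign under any alternative in which it had a value. Of 30 limma values of the 5 called members with 1 library left out, 10 kept the call and 20 lost it: Ankrd37 was called in 5 of 6 omissions, Mxi1 and Ero1l in 2, Adm in 1 and Bhlhe40 in 0. The within-set values and all limma counts for family and partner genes were chosen after seeing the data. No paired analysis was possible because the deposited columns carry no replicate numbers. Car12 had 2 to 25 reads per library and a wide spread, whose parts in its missing call were not tested. Resolution of counts limits Ndrg1, which was tested by the authors alone.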
